A study of Mus musculus with 10 samples.

Results

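Mammary epithelial cells of NIC-Prmt6 mice were set against those of NIC mice across every gene whose deposited value reached 10 in at least 2 of the 10 libraries of the series. This left 15694 of the 16290 genes of the table. The 4 libraries compared were NIC replicates 1 and 2 and NIC-Prmt6 replicates 1 and 2. The series also holds 3 NIC-Prmt1 and 3 NIC-Carm1 libraries, which shared the estimate of spread and are given where they place a difference. All mice were of strain FVB. The cells came from enzyme-digested mammary glands after pulse centrifugation, and poly-A RNA was sequenced. NIC is the background that all groups carried. The labels give it as a genotype only; in the mouse literature it names a line in which an activated Neu (rat Erbb2) transgene and Cre recombinase are driven together in mammary epithelium by the MMTV promoter. The second part of each name is the arginine methyltransferase that was overexpressed as a transgene, as the series describes its aim. The labels give no age, tumour stage, promoter, founder line or pooling of animals, so nothing says whether 2 libraries of a group came from separate mice, and the p-values measure the spread between these samples.

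PRMT6 is a nuclear enzyme that places asymmetric dimethyl marks on arginines, mostly on histone tails. Its histone mark opposes an activating lysine mark at promoters, and the enzyme is best known as a repressor, although it also acts as a coactivator of nuclear receptors and of NF-kB. PRMT1 is the main enzyme of the same class, and CARM1 (PRMT4) is a coactivator. A preparation of mammary epithelium holds luminal and basal cells, and carries along fibroblasts, vessels, fat and immune cells to varying degrees.

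The libraries held between 21589274 and 30260921 reads on genes, with 28568121 and 30260921 in NIC-Prmt6 and 29235457 and 21589274 in NIC. The 2 NIC-Prmt6 libraries were almost copies of each other. Their reads differed with a chi-square of 2.44 per degree of freedom, where 1 would be counting noise alone, and NIC-Carm1 replicates 2 and 3 gave 2.69. Same-group pairs other than these 2 ranged from 28.0 to 105, with the NIC pair at 33.0. The NIC-Prmt6 pair was therefore also averaged into 1 sample, together with the NIC-Carm1 pair, and each count below is followed by the count from that fit, in which 1 NIC-Prmt6 sample meets 2 NIC samples. Values are reads divided by a size factor of the library. Differences are log2 differences of (value + 1), NIC-Prmt6 minus NIC, with their standard error, from limma with Benjamini-Hochberg adjusted p under 0.05 as the threshold.

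The targeted gene was checked first. Prmt6 (chr3:110246109-110250998, minus strand, mm10) stood at 387 and 451 in the NIC libraries and at 873 and 909 in the NIC-Prmt6 libraries. The other groups were lower, at 351, 272 and 355 in NIC-Prmt1 and 329, 224 and 239 in NIC-Carm1, so both NIC-Prmt6 libraries lay above the other 8. The difference from NIC was 1.09 ± 0.20 (adjusted p = 0.00321; 0.0436 with the pairs averaged). The read table does not separate the transgene from the gene of the mouse. Among 11 tested arginine methyltransferases and their partners, Carm1 also rose, from 1556 and 1567 to 2295 and 2432 (0.60 ± 0.10, adjusted p = 0.00204). Carm1 stood at 2303, 2025 and 2136 in NIC-Prmt1 and at 2479, 2324 and 2146 in NIC-Carm1, so the NIC libraries alone were low. NIC-Prmt6 did not pass against either of these groups (adjusted p = 0.390 and 0.814). Prmt1 was at 2675 and 3077 in NIC and 2669.5 and 2720.5 in NIC-Prmt6 and did not pass (-0.09 ± 0.13, adjusted p = 0.613). Prmt5, the main symmetric dimethylase, its partner Wdr77 (MEP50) and its adaptor Riok1 fell by less than 0.5 on the log2 scale, and none of the 3 passed with the pairs averaged. Of 6 genes that the literature names as PRMT6 targets, only Il6 passed. Of all genes tested, 19.0% were higher and 17.8% lower, so this count is no result about the targets. Thbs1 was at 138690.0 and 118751 in NIC and 82388 and 83204 in NIC-Prmt6 (adjusted p = 0.0806), and the CDK inhibitors Cdkn1a, at 9077 and 8651 against 7531 and 7478, and Cdkn1b, at 1866 and 1686 against 1711 and 1693, had adjusted p = 0.105 and 0.664. Erbb2, the receptor behind the Neu model, was at 9343 and 15110.4 in NIC and 8242 and 8372 in NIC-Prmt6 (-0.52 ± 0.29, adjusted p = 0.194).

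Across all genes, 2984 (19.0%) were higher and 2794 (17.8%) lower in NIC-Prmt6 than in NIC, of which 1441 and 696 differed at least 2-fold. With the pairs averaged, 1082 (6.89%) were higher and 582 (3.71%) lower, and all of these were among the first calls. Leaving out NIC replicate 2 gave 1917 higher and 1370 lower genes, leaving out NIC-Prmt6 replicate 1 gave 1556 and 1105, and leaving out NIC-Prmt6 replicate 2 gave 1541 and 1212. The median difference over all genes was -0.01, and more of the higher than of the lower genes differed at least 2-fold. In 58.6% of the higher genes both NIC-Prmt6 libraries lay above every other library of the series, against 38.5% in which both NIC libraries lay below every other. For the lower genes the order was turned: 39.0% had NIC-Prmt6 below all others and 46.0% had NIC above all others. Over all genes tested these shares were 26.6% for NIC-Prmt6 and 22.7% for NIC in either direction. Counts of such genes in the lists below stand beside these shares. A pair of nearly identical libraries falls to 1 side of the rest more readily than a pair that differs.

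**Figure D1:**
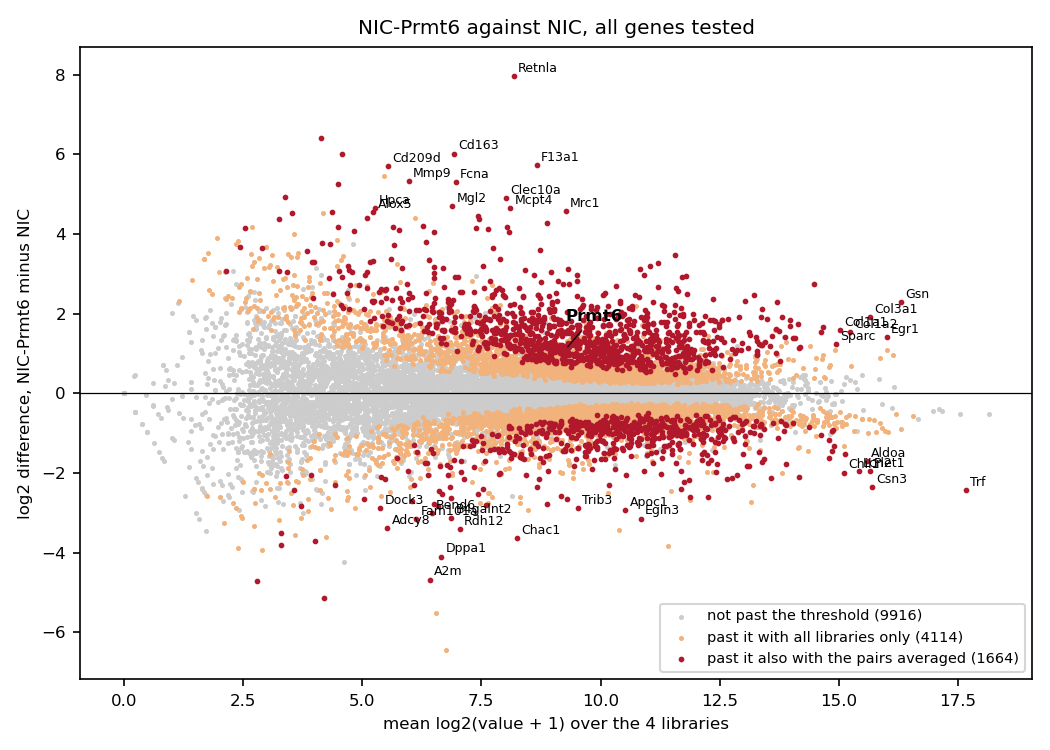
Each point is a gene, with its mean log2(value + 1) over the 4 libraries on the x axis and the log2 difference NIC-Prmt6 minus NIC on the y axis. Red points (1664) passed the threshold in both fits and orange ones only with all libraries as separate samples; Retnla is the highest labelled gene, A2m the lowest, and Prmt6 lies near 1.

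The 12 highest rises were taken among genes past the threshold in both fits with mean log2 values of 5 or more. Most were genes known from tissue macrophages or mast cells. Below that level Rspo4 and Ccl24 differed by 6.41 and 6.02. Retnla, the resistin-like secreted protein that marks interleukin-4-exposed macrophages, stood at 20.8 and 14.3 in NIC and at 4502 and 4686 in NIC-Prmt6 (7.98 ± 0.77, adjusted p = 0.000137). Cd163, the haemoglobin scavenger receptor, went from 21.7 and 9.10 to 949.9 and 1019 (6.02 ± 0.68). F13a1, the A chain of coagulation factor XIII, went from 61.4 and 48.1 to 2908 and 2978 (5.73 ± 0.48). In each of these genes the NIC libraries were far below and did not touch the NIC-Prmt6 libraries. Cd209d, Clec10a, Mgl2 and Mrc1, which are lectin receptors for sugars, rose by 5.71 ± 0.90, 4.91 ± 0.44, 4.71 ± 0.40 and 4.57 ± 0.62. Mrc1, the mannose receptor, was at 247 and 63.7 in NIC and at 3011 and 2988 in NIC-Prmt6. Fcna, a ficolin, rose by 5.30 ± 0.43, the matrix protease Mmp9 by 5.33 ± 0.80 and the leukotriene enzyme Alox5 by 4.55 ± 0.51. Mcpt4, a mast cell chymase, went from 41.6 and 70.2 to 1388 and 1385 (4.66 ± 0.53). Hpca, the neuronal calcium sensor hippocalcin, is known from other cells than these and was at 5.67 and 7.80 against 200.1 and 186 (4.66 ± 0.49). A pass with the pairs averaged, and no overlap between NIC and NIC-Prmt6, were part of the choice of these 12. In all 12 the NIC libraries were the lowest and the NIC-Prmt6 libraries the highest of the 10.

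The other groups lay between. Retnla was at 974, 2582 and 1638 in NIC-Prmt1 and 409, 2610.4 and 2626 in NIC-Carm1, so 1 NIC-Carm1 library was several-fold below the rest of its group. Against NIC-Prmt1 the Retnla difference was 1.52 ± 0.71 (adjusted p = 0.208) and against NIC-Carm1 1.70 ± 0.71 (adjusted p = 0.0801), neither past the threshold. Hpca was past it in both, by 2.77 ± 0.44 (adjusted p = 0.00761) and 3.73 ± 0.44 (adjusted p = 0.000315). Both Hpca calls are from the fit with all libraries as separate samples. The call against NIC-Prmt1 was lost with the pairs averaged.

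**Figure D2:**
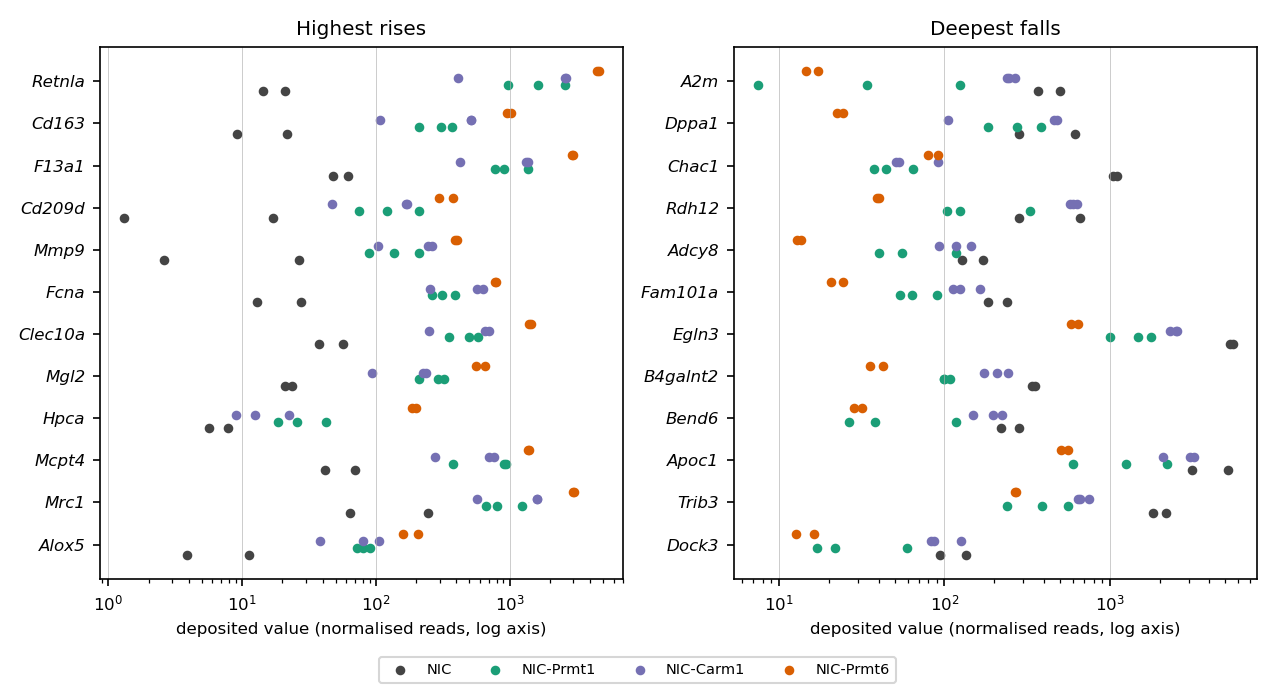
Deposited values on a log axis for the 12 genes with the highest rise (left) and the 12 with the deepest fall (right), 1 point per library, coloured by group. On the left NIC is lowest and NIC-Prmt6 highest in every row; on the right the order of the other groups varies, with Chac1 high in NIC alone.

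The falls of greatest size, picked by the same rule as the rises, were of mixed kinds. Chac1, an enzyme that degrades glutathione and a marker of amino acid stress, stood at 1103 and 1045 in NIC and at 79.7 and 92.0 in NIC-Prmt6 (-3.63 ± 0.33, adjusted p = 0.000104). It was also low in the other groups, at 64.7, 37.3 and 44.4 in NIC-Prmt1 and 91.2, 51.0 and 53.3 in NIC-Carm1, so the NIC libraries alone were high. Trib3, a pseudokinase of the same response, went from 1826 and 2195 to 268 and 273 (-2.88 ± 0.30). Egln3, an oxygen sensor that is itself induced by hypoxia, went from 5576 and 5322 to 586 and 646 (-3.14 ± 0.21, adjusted p = 5.03e-05). Here NIC-Prmt6 was also below NIC-Prmt1, at 1001, 1764 and 1482, and NIC-Carm1, at 2320.3, 2554 and 2521. A2m, the protease inhibitor alpha-2-macroglobulin, went from 502 and 368 to 17.2 and 14.6 (-4.67 ± 0.90). Rdh12, a retinal reductase, went from 283 and 658 to 38.9 and 40.4 (-3.41 ± 0.50) and Adcy8, an adenylate cyclase, from 129 and 172 to 13.6 and 12.9 (-3.39 ± 0.44). Apoc1, an apolipoprotein, fell from 3148 and 5194 to 556 and 509 (-2.92 ± 0.48). B4galnt2, the glycosyltransferase that makes the Sda antigen, went from 338 and 351 to 42.6 and 35.3 (-3.12 ± 0.20). The last 4 of the 12 were Dppa1 (-4.10 ± 0.67), Fam101a (-3.16 ± 0.30), Bend6 (-3.01 ± 0.55) and Dock3 (-2.88 ± 0.51). In 8 of the 12, NIC-Prmt6 was below all other libraries, and in 6 NIC was above all others.

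The most abundant genes that rose at least 1.5-fold were led by Gsn and the fibrillar collagens, and the most abundant that fell by Trf and Csn3. Gsn, the actin-severing protein gelsolin, stood at 33289.5 and 40054 in NIC and 177623 and 179591 in NIC-Prmt6 (2.29 ± 0.32). The fibrillar collagens Col3a1, at 22048 and 31890.2 against 100537 and 99493, Col1a2 and Col1a1 rose by 1.92 ± 0.21, 1.53 ± 0.21 and 1.60 ± 0.26. Sparc, a collagen-binding matrix protein, rose by 1.23 ± 0.22 and the immediate early factor Egr1 by 1.41 ± 0.25. Trf, transferrin, the most abundant gene of the NIC libraries, was at 370757 and 619769 there and at 88654 and 89776 in NIC-Prmt6 (-2.43 ± 0.38, adjusted p = 0.00138). Csn3, kappa-casein, went from 118315 and 121756 to 23904 and 23204 (-2.35 ± 0.29). Plet1, a surface protein of epithelial progenitors, Lcn2, an iron-binding protein, Chil1, a chitinase-like secreted protein, and Aldoa, a glycolytic enzyme, fell as well (-1.95 ± 0.36, -1.94 ± 0.29, -1.99 ± 0.30 and -1.70 ± 0.30). All 6 rises had NIC-Prmt6 above every other library. Of the 6 falls, 2 had NIC-Prmt6 below every other library and the remaining 4 had NIC above every other.

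Markers of fibroblasts moved as a block. The counts of all cell type and matrix lists, here and below, stand beside 19.0% of all genes higher and 17.8% lower. All 12 of 12 rose (12 with the pairs averaged; list median 1.76 against -0.01 over all genes). Their summed level was 4364 and 5338 CPM (reads of the list relative to all recovered reads of that library) in the NIC libraries and 19792 and 19812 in the NIC-Prmt6 libraries. NIC-Prmt1 held 9519, 7267 and 8161 and NIC-Carm1 4644, 4922 and 5035, so NIC-Prmt6 stood above every other library. In all 12 genes both NIC-Prmt6 libraries were the highest of the 10, and in none were the NIC libraries the lowest. In bulk RNA, more cells of a type and more RNA per cell cannot be told apart. Lum (lumican), a proteoglycan that spaces collagen fibrils, went from 2199.8 and 2472 to 11922 and 11995 (2.36 ± 0.18, adjusted p = 6.76e-05). Pi16, a marker of adventitial fibroblasts, went from 666 and 865 to 7226 and 7456 (3.27 ± 0.45). Col6a3, of collagen VI, went from 5097 and 7031 to 28861 and 29859 (2.29 ± 0.19), and Dcn (decorin) from 14924 and 14949 to 43219 and 43249 (1.53 ± 0.19). These sums were high beside the matrix genes that rose, described below, and their part in those results was not tested.

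Vessel markers rose as well. All 10 endothelial markers passed (8 with the pairs averaged; median 1.35), with a summed level of 1133 and 1358 CPM in NIC and 2911 and 2901 in NIC-Prmt6. NIC-Prmt1, at 2845, 2039.9 and 2353, lay near NIC-Prmt6, and NIC-Carm1, at 1164, 1360.2 and 1348, near NIC. Kdr, the main receptor of VEGF, went from 1461 and 2067 to 6612 and 6793 (1.95 ± 0.15), Flt1, a decoy receptor for the same ligands, from 2633 and 3119 to 7170.1 and 7369 (1.34 ± 0.18), and the junction protein Esam from 1386 and 1939.8 to 4679.9 and 4787 (1.53 ± 0.18). All 7 pericyte markers rose (6 with the pairs averaged; median 1.86). Kcnj8, a potassium channel subunit, went from 113 and 138 to 744 and 821 (2.64 ± 0.15), and its partner Abcc9 from 604 and 605 to 3003 and 3069 (2.33 ± 0.17). In 6 of the 7 pericyte genes the NIC libraries were the lowest of the 10. Over all genes tested, NIC lay beyond every other library, in either direction, in 22.7%.

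Immune markers split by cell type. Of 11 tested genes of alternatively activated macrophages 10 rose and Arg1 fell (10 and 1 with the pairs averaged; median 5.30). Arg1, arginase, stood at 3777 and 3386 in NIC and 1740.5 and 1708 in NIC-Prmt6 (-1.05 ± 0.16, adjusted p = 0.00117). Folr2, a folate receptor of resident macrophages, went from 57.6 and 61.1 to 734 and 775 (3.65 ± 0.32). In all 11 the NIC libraries lay beyond the other 8. General macrophage markers moved less. 8 of 12 rose (2 with the pairs averaged; median 0.99), among them the integrin Itgam from 196 and 91.0 to 618 and 654 (2.24 ± 0.37) and the growth factor receptor Csf1r from 1788 and 1294 to 3751 and 3944 (1.34 ± 0.31, adjusted p = 0.0705 with the pairs averaged). Their summed level was 628 and 562 CPM in NIC and 976 and 1000.5 in NIC-Prmt6. NIC-Prmt1 held 476, 784 and 799 and NIC-Carm1 1014, 984 and 1013, so NIC-Carm1 was level with NIC-Prmt6.

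Of 10 mast cell markers 9 rose (8 with the pairs averaged; median 3.90). Cpa3, a carboxypeptidase of mast cell granules, went from 43.5 and 84.5 to 1095 and 1128 (4.17 ± 0.50), and the tryptase Tpsb2 from 44.4 and 96.2 to 1094 and 1112 (4.05 ± 0.50). Gata2, a factor needed for the lineage, went from 253 and 359 to 1033 and 1011 (1.76 ± 0.26). No T or NK cell marker of 11 passed by limma (1 at an unadjusted p under 0.05, 4 by edgeR and 4 by DESeq2 unadjusted, 0 adjusted by either), nor any of 11 skin markers (0 unadjusted, and 0 by edgeR and DESeq2). Among 7 tested B cell markers Jchain alone passed, at 35.0 and 5.20 against 293 and 341 (4.41 ± 1.12; adjusted p = 0.0899 with the pairs averaged). The B cell and the T and NK lists were low in all 10 libraries. The skin list was not: NIC-Prmt1 replicate 1 held 1105 CPM of it and replicate 3 held 119, against 25.1 to 40.1 in the other libraries. The T and NK list summed to 56.0 and 20.7 CPM in NIC and 20.8 and 20.4 in NIC-Prmt6, with 1 NIC library above the other.

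**Figure D3:**
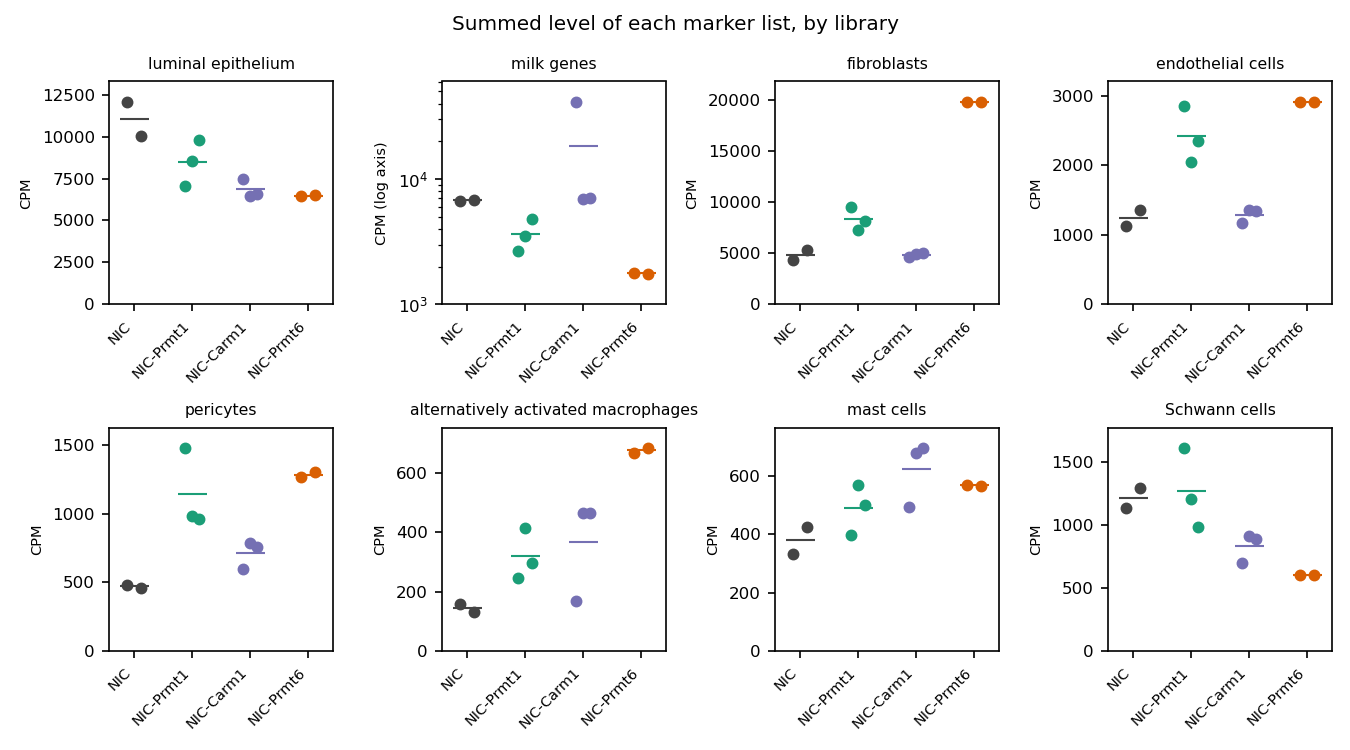
Summed CPM of 8 marker lists, 1 point per library and a bar at each group's mean; the milk panel has a log axis and the others start at 0. NIC-Prmt6 is above all other libraries for fibroblasts and alternatively activated macrophages and below them all for milk genes and Schwann cells.

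Epithelial markers went the other way. Of 12 luminal markers 7 fell and none rose (3 fell with the pairs averaged; median -0.82). Their summed level was 12074 and 10019 CPM in NIC and 6457 and 6501 in NIC-Prmt6, and the labelled cell type is thus present in every library. Epcam, the epithelial adhesion molecule, went from 47439 and 50031 to 18112 and 17836 (-1.44 ± 0.18, adjusted p = 0.00045), but NIC-Prmt1, at 17215, 24259.5 and 25941, and NIC-Carm1, at 25552, 24663 and 25644, were also below NIC. The luminal keratins Krt8 and Krt18 fell (-0.95 ± 0.26 and -0.99 ± 0.22; adjusted p = 0.0176 and 0.00637; 0.124 and 0.0768 with the pairs averaged). Cdh1, E-cadherin, went from 22362 and 17826 to 11646 and 11410.0 (-0.79 ± 0.13). Of 14 epithelial junction and splicing genes 8 fell (4 with the pairs averaged; median -0.56), including the tight junction protein Ocln (-0.95 ± 0.16) and the splicing regulator Esrp1 (-0.70 ± 0.11).

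Luminal progenitor genes fell in 5 of 10 cases (3 with the pairs averaged). This count, and those of the hormone-sensing genes below, stand beside 19.0% of all genes higher and 17.8% lower. Ehf and Elf5 are epithelial ETS factors. Ehf went from 9349 and 7413 to 4544 and 4389.9 (-0.90 ± 0.15) and Elf5 from 5294 and 5814 to 3206 and 3277 (-0.78 ± 0.26; adjusted p = 0.158 with the pairs averaged). Of 11 hormone-sensing genes 4 rose and 1 fell (1 and 0 with the pairs averaged). Pgr, the progesterone receptor, went from 1357 and 1364 to 3766 and 3706 (1.46 ± 0.19, adjusted p = 0.000536), and NIC-Prmt1 stood at 4718, 4051 and 3519.9. Esr1, the oestrogen receptor, was at 1118 and 634 in NIC and 1864 and 1899.9 in NIC-Prmt6 (1.16 ± 0.34; adjusted p = 0.114 with the pairs averaged).

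Milk genes were low in NIC-Prmt6. 5 of 12 fell (2 with the pairs averaged; median -1.68), and the list summed to 6721 and 6776 CPM in NIC, 1781 and 1758 in NIC-Prmt6, 2647, 3521 and 4838 in NIC-Prmt1 and 41328, 6969 and 7111 in NIC-Carm1. 1 NIC-Carm1 library thus held several-fold more milk RNA than any other. Csn1s1, alpha-casein, was at 14708 and 7209 in NIC and 768 and 677 in NIC-Prmt6 (-3.83 ± 1.22; adjusted p = 0.122 with the pairs averaged), and Lalba, the lactose synthase cofactor, at 15991 and 27610.1 against 4172 and 4340.0 (-2.30 ± 0.59). Glycam1, a milk mucin, differed several-fold between the NIC libraries themselves, at 2896 and 352, against 9.96 and 11.2 (-6.45 ± 2.10; adjusted p = 0.163 with the pairs averaged). Csn2, beta-casein, at 4732 and 2452 against 1148 and 1134, did not pass (adjusted p = 0.507). Only Csn3 and Csn1s2b of the list passed in both fits.

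Basal and myoepithelial markers showed little. In this list and in the fat list 2 of 12 genes were higher. That is near the 19.0% of all genes and is no result about these lists. Acta2, smooth muscle actin, and Mylk, its myosin kinase, rose among 12 genes and neither passed with the pairs averaged; Acta2 is also made by pericytes and vessel muscle. The basal keratin Krt14 was at 7784 and 4996 in NIC and 4462 and 4515 in NIC-Prmt6 (adjusted p = 0.455). Fat markers were wide: Fabp4, a fatty acid carrier that capillary cells also make, went from 6798 and 7979 to 28266 and 27642 (1.92 ± 0.19), and Plin4 was the only other one of 12 to pass (Fabp4 alone with the pairs averaged). The list median was 1.58, and between 0.59 and 2.30 over the alternatives. Of 8 Schwann cell genes 4 fell (1 with the pairs averaged). That 1 was Sox10, a factor that mammary epithelium makes too, from 9839 and 11932 to 4713 and 4765 (-1.19 ± 0.15).

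Matrix and mesenchymal genes rose with the fibroblast sums given above. Of 13 further collagens 10 rose (8 with the pairs averaged; median 1.30), and in 10 of the 13 NIC-Prmt6 lay beyond every other library. Col5a1, which seeds collagen fibrils, went from 2813 and 3612 to 11423 and 11312 (1.83 ± 0.15), and Col18a1, a vessel basement membrane collagen, from 2752 and 3591 to 11148 and 11482 (1.85 ± 0.20). All 12 mesenchymal transition genes rose (7 with the pairs averaged; median 1.41). Fn1, fibronectin, went from 7701 and 9957 to 57822 and 59910.5 (2.75 ± 0.29, adjusted p = 0.000227). The transcription factors Twist1, at 138 and 159 against 588 and 557, Snai1, at 439 and 386 against 1164 and 1134, and Prrx1 rose by 1.94 ± 0.24, 1.48 ± 0.16 and 1.86 ± 0.28. Vim, vimentin, went from 17931 and 18941 to 36099 and 36140.2 (0.97 ± 0.24; adjusted p = 0.0824 with the pairs averaged).

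Of 14 tested matrix proteases and inhibitors 7 rose and Mmp13 fell (6 and 0 with the pairs averaged). The gelatinase Mmp2 went from 3738 and 4209 to 14706 and 15073 (1.91 ± 0.30), the membrane protease Mmp14, which activates it, from 2457 and 2361 to 6994 and 6939 (1.53 ± 0.18), and Timp2, which binds both, from 8015 and 6959.7 to 22821 and 22970.5 (1.62 ± 0.22). Of 18 integrins and laminins 7 rose and 1 fell (5 and 0 with the pairs averaged), among them the laminin chains Lamb1 (1.73 ± 0.15) and Lamc1 (1.32 ± 0.12) and the fibronectin receptor subunit Itga5 (1.08 ± 0.14).

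The counts of the signalling lists stand beside 19.0% of all genes higher and 17.8% lower, or 6.89% and 3.71% with the pairs averaged. In the Notch pathway 7 of 13 genes rose and 1 fell (5 and 1 with the pairs averaged; median 0.96). The ligand Dll4, made by sprouting endothelium, went from 1419 and 1324 to 3057 and 3026 (1.15 ± 0.11), the endothelial receptor Notch4 from 525 and 810.0 to 2255 and 2013 (1.71 ± 0.21), and the mural receptor Notch3 from 7353 and 6597 to 15764 and 16482 (1.21 ± 0.22). Hey1, a target that is also a luminal progenitor gene of the lists, fell (-1.04 ± 0.20). Of 18 TGF-beta and BMP genes 8 rose and 1 fell (4 and 0 with the pairs averaged). They included the ligand Tgfb1 (0.79 ± 0.14), the coreceptor Tgfbr3 (1.29 ± 0.14) and the BMP targets Id1 (1.16 ± 0.21) and Id3 (1.45 ± 0.17). Sfrp4 and Sfrp2, secreted Wnt inhibitors, rose by 3.04 ± 0.45 and 1.19 ± 0.18 among 15 tested Wnt genes, of which 5 rose and 1 fell (2 and 0 with the pairs averaged). Of 18 immediate early genes 8 rose and Ier3 fell (3 and 1 with the pairs averaged). Dusp1, a phosphatase that ends MAP kinase signalling, went from 9054 and 7019.5 to 17649.9 and 18638 (1.19 ± 0.17).

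Stress and metabolic lists fell. The counts of these lists, here and in the paragraphs below, stand beside 19.0% of all genes higher and 17.8% lower. Of 16 amino acid stress genes 10 fell and none rose (4 with the pairs averaged; median -1.02). Asns, asparagine synthetase, went from 1814 and 1959 to 839 and 757 (-1.24 ± 0.14) and Ddit4, an mTOR inhibitor, from 8685 and 9702 to 4214 and 4228 (-1.12 ± 0.13). In 11 of the 16 the NIC libraries lay beyond every other library, and in none did NIC-Prmt6. Over all genes tested the shares were 22.7% for NIC and 26.6% for NIC-Prmt6. Asns was at 657, 837 and 847 in NIC-Prmt1 and 1125, 999 and 1035 in NIC-Carm1. ATF4, the factor behind this response, binds a site whose core TGATGNAA (either strand) was searched in the 250 bases before each gene's start. It was found in 5 of 16 start windows of the list and in 2.14% of all 14866 windows of tested genes. Of these, Asns, Chac1 and Slc7a11 fell. The windows of Chac1 and Asns are shown as examples, with the core in capitals (RefSeq, GRCm38.p6, 5′ to 3′ on the gene's strand). Chac1 lies at chr2:119350992-119351241 on the plus strand and Asns at chr6:7693210-7693459 on the minus strand. The Trib3 window held no match. Motifs known for 6 other lists were searched the same way, and no window of theirs is shown.
Chac1: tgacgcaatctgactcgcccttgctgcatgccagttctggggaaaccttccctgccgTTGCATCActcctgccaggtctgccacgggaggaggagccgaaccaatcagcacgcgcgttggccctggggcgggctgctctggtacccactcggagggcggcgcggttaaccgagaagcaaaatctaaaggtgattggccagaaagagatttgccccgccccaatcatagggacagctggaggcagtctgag
Asns: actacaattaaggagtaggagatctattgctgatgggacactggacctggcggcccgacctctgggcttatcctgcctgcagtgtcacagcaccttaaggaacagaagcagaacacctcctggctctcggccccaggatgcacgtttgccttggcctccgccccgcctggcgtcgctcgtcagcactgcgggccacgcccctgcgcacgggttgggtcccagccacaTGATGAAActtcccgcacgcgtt

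Interferon-stimulated genes fell in 13 of 20 cases and none rose (3 with the pairs averaged; median -0.99). Irf7, the factor that amplifies the response, went from 3829 and 6428 to 1174 and 1249 (-2.03 ± 0.28, adjusted p = 0.000753), Oas1a, an RNA sensor, from 1030.0 and 1645 to 349 and 385 (-1.83 ± 0.32), and Bst2 (tetherin) from 2604 and 4115 to 1479 and 1448 (-1.16 ± 0.21). The NIC libraries differed between themselves here, NIC 2 being the higher in each. Irf7 was at 740.5, 1227 and 1050.0 in NIC-Prmt1 and 2457, 3429 and 3533 in NIC-Carm1. Isg15, at 902 and 1579.7 against 541 and 599, and Rsad2 (viperin), at 595 and 1005 against 258 and 246, lost the call with the pairs averaged (adjusted p = 0.0988 and 0.0546), and Ifit1 did not pass in either fit. The core of the interferon-stimulated response element, TTTCNNTTT on either strand, stood in 9 of 17 start windows of this list and in 7.33% of all windows. The windows of Oas1a (chr5:120907526-120907775), Bst2 (chr8:71537473-71537722) and Rsad2 (chr12:26456453-26456702), all on the minus strand, are shown as examples of the 6 genes that fell and hold the core, with 2 matches each in capitals. Ifit3, Isg15 and Oasl1 are the 3 not shown. Those of Oas1a and Bst2 overlap. A match is a description of the letters only.
Oas1a: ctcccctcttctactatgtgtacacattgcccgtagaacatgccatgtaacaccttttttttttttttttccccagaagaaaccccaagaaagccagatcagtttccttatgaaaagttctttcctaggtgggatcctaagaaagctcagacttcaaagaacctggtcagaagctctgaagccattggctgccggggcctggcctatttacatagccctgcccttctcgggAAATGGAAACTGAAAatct
Bst2: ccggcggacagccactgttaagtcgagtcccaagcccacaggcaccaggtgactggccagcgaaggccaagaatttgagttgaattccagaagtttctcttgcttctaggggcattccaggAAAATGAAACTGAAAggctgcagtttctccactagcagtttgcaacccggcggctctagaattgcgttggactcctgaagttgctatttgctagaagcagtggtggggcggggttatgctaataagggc
Rsad2: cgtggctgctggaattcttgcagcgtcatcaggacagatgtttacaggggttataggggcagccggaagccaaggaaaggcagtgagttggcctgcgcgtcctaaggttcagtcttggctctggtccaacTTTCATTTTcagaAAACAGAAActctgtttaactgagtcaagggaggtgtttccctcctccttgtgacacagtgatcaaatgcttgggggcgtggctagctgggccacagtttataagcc

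Inflammatory genes did not move together. Their counts lie near the shares of all genes, 19.0% higher and 17.8% lower, and are no result about this list. Among 17 NF-kB and inflammatory genes, Il6 and Ccl2 rose and 4 fell (2 and 1 with the pairs averaged). Il6, the cytokine interleukin-6, went from 3356 and 3341 to 8243 and 8296 (1.30 ± 0.12, adjusted p = 0.000117). Ccl2, the monocyte chemokine, went from 1246 and 723 to 4018 and 4046 (2.09 ± 0.20). The neutrophil chemokine Cxcl2 fell from 4795 and 4816 to 2279 and 2309 (-1.07 ± 0.10), yet stood above NIC-Prmt1, at 922, 843 and 939, and NIC-Carm1, at 987, 992 and 1096. Lif and Il11, cytokines that share a receptor chain with interleukin-6, fell (-1.48 ± 0.29 and -2.63 ± 0.51), and the NIC libraries differed for Il11, at 519.7 and 159, against 45.3 and 45.6.

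Glycolysis and hypoxia genes fell in 11 of 16 cases, with Hk2 and Adm higher (9 and 1 with the pairs averaged; median -1.03). Slc2a1, the glucose transporter GLUT1, went from 16966 and 17085 to 5965 and 6209 (-1.48 ± 0.17, adjusted p = 0.00035). Pgk1 went from 7809 and 8785 to 3900.2 and 3837 (-1.10 ± 0.12) and Pfkp, the platelet form of phosphofructokinase, from 5399 and 5414 to 2768 and 2921 (-0.93 ± 0.11). Cholesterol and fatty acid synthesis genes fell in 10 of 19 cases and Hmgcs1 alone rose (7 and 0 with the pairs averaged). Scd2, a desaturase, went from 17626 and 14562 to 4587 and 4530.1 (-1.81 ± 0.16), Dhcr7, the last enzyme of cholesterol synthesis, from 2334 and 2539 to 609 and 688 (-1.91 ± 0.27), and Insig1, a feedback brake of the same pathway, from 4067 and 4613 to 1808 and 1744 (-1.29 ± 0.12). The glycolysis list summed to 8920 and 10134 CPM in NIC and 4305 and 4331 in NIC-Prmt6. NIC-Prmt1 held 3913, 6077 and 5245 and NIC-Carm1 6704, 7318 and 7279. Against NIC-Prmt1, 1 of its genes was lower and 1 higher, and against NIC-Carm1 8 and 2. In the cholesterol and fatty acid list these counts were 0 and 3, then 5 and 6. Of all genes, 2.54% were lower and 4.94% higher than in NIC-Prmt1, and 18.4% and 20.9% than in NIC-Carm1. All these counts are from the fit with all libraries as separate samples. The NIC libraries lay beyond every other library in 9 of the 16 and 10 of the 19 genes. NIC-Prmt6 did so in 5 of each list. Over all genes tested the shares were 22.7% for NIC and 26.6% for NIC-Prmt6. The counts of NIC-Prmt6 are near its share and are no result about these lists. The fall of luminal markers went beside the falls of both lists, and its part in them was not tested.

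**Figure D4:**
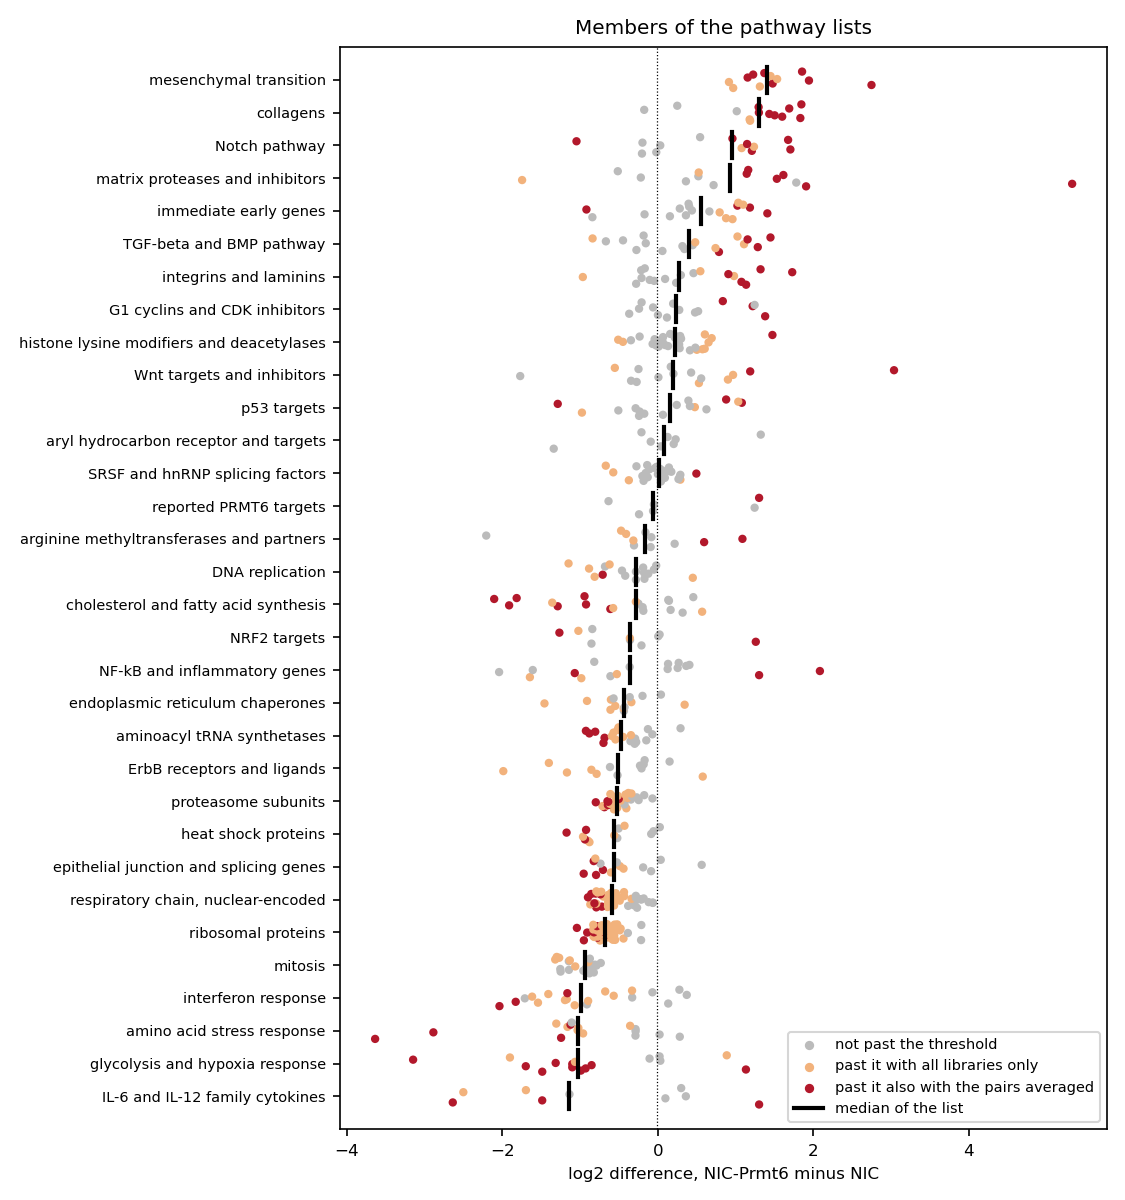
Each row is a gene list, each point a tested member at its log2 difference NIC-Prmt6 minus NIC, and the black bar the list's median. Mesenchymal and collagen genes lie to the right of the dotted line (the median of all genes), and interferon, amino acid stress and glycolysis genes to the left; red members passed in both fits.

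Genes of the ribosome, respiratory chain and proteasome fell by small amounts. Of 75 tested cytosolic ribosomal protein genes 72 fell (9 with the pairs averaged; median -0.68). Rps14 went from 34028 and 38169 to 17505 and 17578 (-1.04 ± 0.18) and Rpl39 from 8539 and 9063 to 4706 and 5191 (-0.83 ± 0.13). Many of these genes have near-identical processed copies, so single values are uncertain. Of 45 nuclear-encoded respiratory chain genes 33 fell (7 with the pairs averaged; median -0.59), the smallest adjusted p being that of Cox6c (-0.74 ± 0.11). Of 31 proteasome genes 24 fell (7 with the pairs averaged; median -0.52), with the smallest adjusted p for Psma6 (-0.68 ± 0.10), and of 20 aminoacyl tRNA synthetases 12 (5 with the pairs averaged), with the smallest adjusted p for Nars (-0.88 ± 0.12). All 4 medians stayed below 0 under each scaling tried. Against NIC-Prmt1, 0 of the ribosomal protein genes, 2 of the respiratory chain, 0 of the proteasome and 0 of the synthetase genes were lower. Against NIC-Carm1 these counts were 1, 23, 9 and 7. Of all genes, 2.54% were lower than in NIC-Prmt1 and 18.4% than in NIC-Carm1. The NIC libraries lay beyond every other library in 66 of the 75 ribosomal protein genes, and NIC-Prmt6 in 57. Over all genes tested the shares were 22.7% and 26.6%. Heat shock genes fell in 8 of 13 cases (3 with the pairs averaged). Hspb1 went from 47608 and 38560.0 to 18678 and 19371 (-1.17 ± 0.17), while NIC-Carm1 stood lower still, at 10646, 10910.3 and 10529.

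Cell cycle genes gave few calls that held. Of 20 mitosis genes 6 fell (0 by limma with the pairs averaged, where 2 had an unadjusted p under 0.05; 5 by edgeR and 15 by DESeq2 with all libraries; median -0.94), among them Aurka, at 199 and 225 against 103 and 98.9 (-1.06 ± 0.29). The list summed to 372 and 411 CPM in NIC, 211 and 213 in NIC-Prmt6, 145, 431 and 199 in NIC-Prmt1 and 656, 659.6 and 668 in NIC-Carm1, so NIC-Prmt1 spanned both levels. Of 17 DNA replication genes 5 fell and Mcm4 rose, and Mcm7 alone passed in both fits (-0.71 ± 0.11). The cyclin Ccnd2, at 1088 and 949 against 2622 and 2677, and the CDK inhibitors Cdkn1c, at 335 and 295 against 744 and 725, and Cdkn2d rose in both fits (1.38 ± 0.26, 1.22 ± 0.22 and 0.84 ± 0.15). Among 13 ErbB receptors and ligands Egfr rose (0.58 ± 0.10) and Tgfa, Erbb3, Epgn, Erbb4 and Egf fell, and none of the 6 passed by limma with the pairs averaged (6 had an unadjusted p under 0.05 there, and edgeR and DESeq2 called 6 each with all libraries). Of 32 histone modifiers 7 rose and 2 fell (1 and 0 with the pairs averaged), that 1 being Hdac7, a deacetylase found in endothelium (1.48 ± 0.16). Of 28 SRSF and hnRNP splicing factors 2 rose and 3 fell (1 and 0 with the pairs averaged), and of 8 aryl hydrocarbon receptor genes none passed by limma (1 at an unadjusted p under 0.05, 0 adjusted by edgeR and 1 by DESeq2). Of all genes, 19.0% were higher and 17.8% lower (6.89% and 3.71% with the pairs averaged), so the shares of the histone modifiers and splicing factors are no result about these lists.

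Against the other transgenic groups, 776 genes (4.94%) were higher and 399 (2.54%) lower in NIC-Prmt6 than in NIC-Prmt1 (17 and 4 with the pairs averaged), and 3275 (20.9%) higher and 2882 (18.4%) lower than in NIC-Carm1 (994 and 268). The NIC-Prmt6 libraries serve in all 3 comparisons. Genes past the threshold with 1 sign against NIC, NIC-Prmt1 and NIC-Carm1 numbered 561 higher (3.57%) and 158 lower (1.01%). Upper-quartile rescaling turned the split against NIC-Prmt1 to 550 higher and 577 lower, and that of the genes apart from every group to 422 and 249. Without NIC-Prmt1 replicate 1 there were 1289 higher and 948 lower genes against NIC-Prmt1, without NIC-Prmt1 replicate 3 there were 311 and 133, and without NIC-Carm1 replicate 1 there were 1275 and 707. Without NIC-Prmt6 replicate 1 or 2, 38 or 39 were higher and 9 lower. With the pairs averaged 14 higher and 2 lower genes were apart from every group.

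The 14 higher genes are given with their known roles. Tnfaip6 (TSG-6), a secreted hyaluronan-binding protein, was at 591 and 810.0 in NIC and 6389.5 and 6228 in NIC-Prmt6 (3.19 ± 0.17, adjusted p = 2.04e-05). It reached at most 1292 in the other groups. Has1, a hyaluronan synthase, was at 799 and 1092 against 5956 and 6034 (2.68 ± 0.24), with 1094, 1251 and 1379 in NIC-Prmt1 and 372, 598 and 642 in NIC-Carm1. Ugdh and Uap1 make the UDP-sugars from which hyaluronan is built. Ugdh was at 909 and 1171 against 3767 and 3581 (1.83 ± 0.16), and Uap1 at 3248 and 3408 against 6591 and 6424 (0.97 ± 0.11). Ptx3, a long pentraxin that binds Tnfaip6 protein, was at 1124 and 1418 against 5213 and 5360.1 (2.06 ± 0.18). Nid1, nidogen of basement membranes, was at 3386 and 4049 against 18611 and 18667 (2.33 ± 0.11). Ccl2 was described above. Mrc2, a collagen uptake receptor, Mmp19, a matrix protease, Frem1, a basement membrane protein, Cpxm1, a secreted carboxypeptidase-like protein, and Ssc5d, a scavenger receptor protein, rose as well. Mrc2 was at 656 and 792 against 2862 and 2907, Mmp19 at 292 and 335 against 1714 and 1699, and the log2 differences of Frem1, Cpxm1 and Ssc5d were 2.05 ± 0.17, 2.28 ± 0.13 and 2.71 ± 0.22. Sh2b3, an adaptor that limits cytokine signalling, and B4galt5, a galactosyltransferase, rose by 1.20 ± 0.09 and 1.02 ± 0.13. Lower than all groups were Pdk4, the kinase that shuts pyruvate out of the citric acid cycle, at 1724 and 1166 in NIC and 505 and 525 in NIC-Prmt6 (-1.46 ± 0.18), and Plekhb1 at 3577 and 4580.4 against 1606 and 1637 (-1.32 ± 0.12). These 16 were named because so few passed, after their values were seen, apart from Tnfaip6, Ccl2 and Pdk4.

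**Figure D5:**
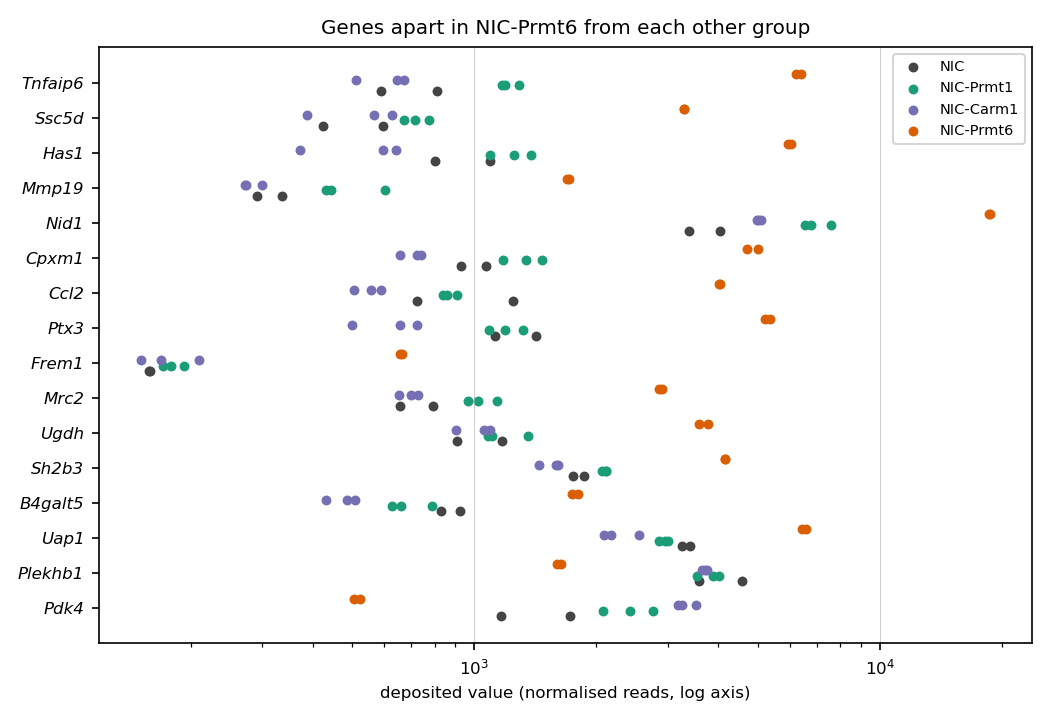
Deposited values on a log axis of the 16 genes that passed against NIC, NIC-Prmt1 and NIC-Carm1 in both fits, 1 point per library. The 2 NIC-Prmt6 libraries are the highest in the upper 14 rows and the lowest in the last 2, and nearly coincide in each.

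Ranked by the smallest of the 3 differences, the genes apart from every group in the fit with all libraries were led by Fgf10, a growth factor of mammary mesenchyme, at 83.2 and 133 in NIC and 2066 and 2058 in NIC-Prmt6 (4.28 ± 0.54; 3.25 ± 0.49 against NIC-Prmt1 and 3.94 ± 0.49 against NIC-Carm1). Bmper, a secreted BMP modulator, was at 94.5 and 156 against 1509 and 1472 (3.61 ± 0.41), and Fndc1, a fibronectin-domain protein, at 770.1 and 1065 against 9952 and 10279 (3.48 ± 0.51). Smpd3, a sphingomyelinase, Tmeff2, a membrane protein with follistatin domains, and Dmrt2, a transcription factor, rose by 4.15 ± 0.65, 3.09 ± 0.51 and 2.65 ± 0.48. Scgb1b27, an androgen-binding protein subunit of the secretoglobin family with close paralogs, was at 457 and 454 against 2614 and 2619.8 (2.52 ± 0.44), where its counts may be shared between copies. Pi16 and Hpca, given above, complete the 10 with Tnfaip6. The falls apart from every group included Igfals, which carries IGF in a complex, from 1098 and 1796 to 248 and 224 (-2.57 ± 0.34), the protease inhibitor Spink5 from 239 and 234 to 25.4 and 43.9 (-2.79 ± 0.46) and the developmental factor Eya1 from 104 and 83.2 to 13.6 and 29.2 (-2.16 ± 0.39). Btn2a2, a butyrophilin, and Lyzl4, a lysozyme-like protein, fell too (-2.10 ± 0.32 and -2.35 ± 0.43).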

How the data were processed

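RNA-seq of mammary epithelial cells gave 1 table for 10 libraries. Its values are signal, that is read counts divided by a DESeq size factor per library by the authors, who used mm10, TopHat2 2.0.10, HTSeq 0.6.0 and DESeq 1.18.0 per the submitters' processing notes. 100% of values came out as whole reads within 0.01 of a read, and the deposited values were used as they stand for the main test.

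The main test was limma 3.58.1 (R 4.3.3) with an intensity trend on log2(value + 1), over all 10 libraries and 4 group means (6 residual degrees of freedom), for genes with a value of 10 or more in 2 libraries. edgeR 4.0.16, DESeq2 1.42.0 and voom ran on recovered reads as alternatives. Depth sets the precision of low genes. Members and gene lists were chosen with earlier results of these data known. Genes named are the targeted genes, the 12 largest rises and 12 largest falls past the threshold in both fits with mean log2 values of 5 or more, the 6 most abundant of each, 10 and 10 apart from every group, and up to 4 per list; any other gene was named after its values were seen.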

Additional observations from a re-analysis of the deposited data

How the results depend on the processing

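In all, 23 alternatives were run. The leading rises and falls, the most abundant genes and the genes apart were picked for passing against NIC with the pairs averaged, among other conditions. For the genes apart that were ranked by the smallest of the 3 differences, passing with the pairs averaged was not asked against NIC-Prmt1 or NIC-Carm1. Fgf10, which led them, did not pass against NIC-Prmt1 in that fit. Of 257 called genes that the naming rules picked or that were added later, not all of them described in the text, 182 were called in every alternative and none reversed; the same number, 182, passed with the pairs averaged. With the NIC-Carm1 and NIC-Prmt6 pairs averaged, NIC-Prmt6 had 1082 genes higher and 582 lower than NIC, 17 and 4 than NIC-Prmt1, 994 and 268 than NIC-Carm1, and 14 and 2 apart from every group. Averaging the NIC-Prmt6 pair alone gave 1509 and 1100, 36 and 6, 1597 and 964, and 33 and 4 in the same order. Fewer samples enter these fits. DESeq2 gave 1291 and 828 against NIC-Prmt1 and 847 and 296 apart, and voom with quality weights 2683 and 2290 against NIC-Prmt1, 5408 and 5494 against NIC-Carm1 and 1763 and 1215 apart. Upper-quartile rescaling gave 249 lower genes apart. The cause of these moves was not tested.

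Same-numbered libraries deviated from their group means with correlations between -0.13 and 0.10. The pairs without a NIC-Prmt6 library spanned this range and showed no sign of pairing. For NIC-Prmt6 this check cannot decide, because its 2 libraries are nearly identical and deviate little beyond counting noise. With the replicate number as a block, 2802 genes were higher and 2607 lower than NIC, 387 and 184 than NIC-Prmt1, 2787 and 2299 than NIC-Carm1, and 318 and 69 were apart.

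Leaving out 1 library at a time gave 1541 to 3467 higher and 1105 to 3166 lower genes against NIC. Against NIC-Prmt1 the ranges were 38 to 1289 and 9 to 948, against NIC-Carm1 1605 to 3544 and 970 to 3240, and apart 35 to 947 and 5 to 600. Where a group is left with 1 library, that library is assumed to vary like the other groups. The depth of 21589274 reads or more leaves wide errors for genes of a few reads.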

Other observations

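Genes near silence in NIC and read in NIC-Prmt6 were listed after the values were seen: at most 3 reads in each NIC library and at least 40 in each NIC-Prmt6 library. There were 8, and 0 the other way. That choice fixes the contrast, so the reads are given as a description with no test. Rspo4, a Wnt-enhancing R-spondin, had 2 reads in NIC and 365 in NIC-Prmt6 and between 0 and 11 reads in the 6 NIC-Prmt1 and NIC-Carm1 libraries. Pkd1l2, of the polycystin family, had 5 against 196 reads and between 0 and 13 in the other 6. Grin3a, a glutamate receptor subunit, had 2 against 97, and the cadherin Cdh9 4 against 106, with no more than 10 reads in any other library for either. The other 4 were immune genes that also had reads in the other groups. Ccl24, an eosinophil chemokine, had 4 against 435 reads and 14 to 144 in the other 6 libraries. Ms4a2, the beta chain of the IgE receptor of mast cells, had 2 against 130 and 6 to 30. Adora3, an adenosine receptor, had 5 against 90, and Pira6, one of a family of near-identical receptors whose reads may be shared, 5 against 94.

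A hyaluronan gene group was also read off after Has1, Ugdh, Uap1 and Tnfaip6 had been seen, so its values are a description. Of its 19 genes 10 were higher and 5 lower (9 and 0 by limma with the pairs averaged), and Has3, Hyal2, Cemip and Tmem2 did not pass. Of all genes, 19.0% were higher and 17.8% lower (6.89% and 3.71% with the pairs averaged). Has1, Ugdh, Uap1, Tnfaip6 and Ptx3, described above for passing against every group, were among the higher genes in both fits. The counts thus hold genes picked by their values and are no test of the group. Has2, the other main synthase, was at 171 and 207 in NIC and 784 and 769.8 in NIC-Prmt6 (2.04 ± 0.19, limma adjusted p = 0.000122), and in NIC-Prmt1 at 795, 616 and 808. Gfpt2, which starts the hexosamine pathway in stroma, was at 1443 and 1168 against 7637 and 7727 (2.56 ± 0.30), while its paralog Gfpt1 was at 4381 and 4440.0 against 3013 and 2875 (-0.58 ± 0.17; adjusted p = 0.145 with the pairs averaged). Itih5, which belongs to the family of hyaluronan-linked inhibitor chains, was at 2836 and 2270.1 against 7391 and 7454 (1.55 ± 0.23). The receptor Lyve1 rose, at 173 and 68.9 against 630 and 548 (2.42 ± 0.38), with 451, 683 and 656 in NIC-Carm1. Vcan was at 473 and 673 against 1559 and 1419 (1.40 ± 0.32), a call lost with the pairs averaged. Has3 was at 33.1 and 48.1 against 62.5 and 87.7 and did not pass (adjusted p = 0.0514). The receptor Cd44 went the other way, at 6035 and 4164 against 2797 and 2768 (-0.85 ± 0.17; adjusted p = 0.0604 with the pairs averaged), and so did the hyaluronidase Hyal1, at 563 and 479.8 against 299 and 366 (-0.65 ± 0.18; adjusted p = 0.113 with the pairs averaged). Also lower were Ugp2, which makes the UDP-glucose that Ugdh uses (-0.51 ± 0.12, adjusted p = 0.00756; 0.0841 with the pairs averaged), and the receptor Hmmr (-1.12 ± 0.37, adjusted p = 0.0388; 0.179 with the pairs averaged).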
